A study of Mus musculus with 4 samples.

Results

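The Wnt ligands, their Frizzled receptors and the secreted Wnt inhibitors were examined in mouse left ventricle after myocardial infarction. Genes were taken by symbol (Wnt, Fzd or Sfrp followed by a digit, any Dkk symbol, and Wif1), which gave 36 of the 17550 genes listed in at least 1 library. They comprised 17 ligands, 10 receptors and 9 inhibitors. A level of 1 RPKM (reads scaled to gene model length and library size) was reached somewhere by 17 of them, namely 4 ligands, 8 receptors and 5 inhibitors. The other 19 stayed below 1 RPKM throughout. Near this limit, Fzd9 peaked at 1.08 RPKM just inside it, and Wnt2b at 0.784 RPKM and Sfrp5 at 0.671 RPKM just outside it.

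RNA sequencing covered 4 groups with 1 library each: infarcted and non-infarcted ventricle of C57BL/6 mice labelled Neil3-/-, and infarcted and non-infarcted ventricle of wild-type C57BL/6 mice. All mice were 8 weeks old and had been infarcted 3 days earlier, so the non-infarcted tissue came from infarcted hearts and not from unoperated ones. Libraries with the Neil3-/- label are called KO-labelled here, because Neil3, a DNA repair glycosylase, had more reads in them: 763 in KO-labelled infarcted and 391 in KO-labelled non-infarcted tissue, against 155 in wild-type infarcted and 62 in wild-type non-infarcted tissue. The labels do not say which part of the gene was deleted or whether a library came from 1 mouse or several. With 1 library per group no single pair of libraries has a replicate check. A fit of tissue plus genotype label over all 4 libraries, which leaves 1 residual degree of freedom, was added after the values were seen. Ratios compare libraries, and the ranges in parentheses are exact 95% intervals that cover counting error only.

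Library totals lay between 14.3 and 18.2 M reads, of which 4916 to 8560 fell on the 36 genes. All 6 cardiomyocyte markers were above 1 RPKM in every library, and the atrial light chain Myl4 was at 16.01 RPKM in KO-labelled and 63.1 RPKM in wild-type non-infarcted tissue, so the non-infarcted samples also held RNA of an atrial marker. The summed cardiomyocyte level was 4406 RPKM in KO-labelled infarcted and 14474 RPKM in KO-labelled non-infarcted tissue, against 6984 RPKM in wild-type infarcted and 15641 RPKM in wild-type non-infarcted tissue. Summed markers of other cells moved too: the infarcted over non-infarcted ratio in the KO-labelled pair was 2.09 for macrophages, 9.92 for neutrophils, 1.6 for endothelium and 1.51 for fibroblasts. In the wild-type pair it was 2.5 for macrophages, 7.33 for neutrophils, 1.61 for endothelium and 1.25 for fibroblasts. In such bulk tissue, fewer cells of a type cannot be told apart from less RNA per cell.

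Wnt proteins are secreted, lipid-modified signals that bind the cysteine-rich domain of Frizzled receptors. Together with the co-receptors Lrp5 and Lrp6 they stabilise β-catenin, and through other co-receptors such as Ror2 they act without it. Secreted inhibitors work in different ways: Sfrp proteins carry a Frizzled-like domain and bind Wnts, Wif1 binds Wnts through a domain of its own, and Dkk1 and Dkk2 bind Lrp5 and Lrp6. In the injured heart the pathway is known for its activity in fibroblasts, endothelium and inflammatory cells.

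RefSeq promoters on assembly GRCm38.p6 were matched for 26 of the 36 genes, 11 of them among the 17 that reached 1 RPKM. The 250 bases before the start site are shown for 3 inhibitors that were at least 2-fold apart in a comparison, and for Fzd7 as a receptor with a TCF/LEF word, the sequence read by the nuclear partners of β-catenin. Dkk3 was 2-fold apart as well, but no promoter was matched for it. Capitals mark matches, on either strand, to the TCF/LEF words CTTTGAA, also CTTTGAT, further CTTTGTA and finally CTTTGTT, to the TATA word TATAAA, and to the AP-1 words TGACTCA or its reverse complement TGAGTCA.
Sfrp2 (chr3:83766071-83766320, plus strand): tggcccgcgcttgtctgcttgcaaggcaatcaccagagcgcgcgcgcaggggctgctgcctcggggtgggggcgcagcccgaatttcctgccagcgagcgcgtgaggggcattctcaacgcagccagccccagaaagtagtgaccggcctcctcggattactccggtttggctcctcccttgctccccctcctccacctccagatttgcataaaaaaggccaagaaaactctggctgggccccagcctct
Dkk2 (chr3:132085042-132085291, plus strand): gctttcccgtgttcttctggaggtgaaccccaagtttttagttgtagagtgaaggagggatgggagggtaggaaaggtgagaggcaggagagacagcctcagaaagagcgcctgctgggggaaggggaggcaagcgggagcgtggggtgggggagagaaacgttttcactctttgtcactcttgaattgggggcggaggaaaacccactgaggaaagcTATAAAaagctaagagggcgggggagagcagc
Wif1 (chr10:121033754-121034003, plus strand): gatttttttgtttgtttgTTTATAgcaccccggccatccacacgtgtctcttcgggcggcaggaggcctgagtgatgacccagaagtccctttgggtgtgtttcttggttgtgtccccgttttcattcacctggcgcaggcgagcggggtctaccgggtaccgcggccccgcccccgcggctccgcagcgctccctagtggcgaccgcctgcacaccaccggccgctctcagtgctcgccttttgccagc
Fzd7 (chr1:59481897-59482146, plus strand): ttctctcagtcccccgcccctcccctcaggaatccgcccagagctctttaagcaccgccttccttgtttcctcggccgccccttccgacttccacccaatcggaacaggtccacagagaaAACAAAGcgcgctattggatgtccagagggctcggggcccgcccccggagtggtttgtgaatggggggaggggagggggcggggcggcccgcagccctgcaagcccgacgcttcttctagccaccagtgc
The Dkk2 window held a TATA word whose first base lies 32 bases before the start. The word in the Wif1 window lay 232 bases before it, and the Fzd7 window held a TCF/LEF word 130 bases before it. The Sfrp2 window held none of these words and was 63.6% G and C, against 55.6% for Dkk2, 62.8% for Wif1, 65.2% for Fzd7 and a median of 52.4% over all promoters. Of the 29 promoters of family genes, 4 held a TCF/LEF word, 5 a TATA word and 1 an AP-1 word. Over all 32851 promoters of the same length the shares were 14.8%, 12.4% and 4.46%. These are letter matches only, and none of the words overlaps another in the 4 windows shown.

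The level of each gene across the libraries set the receptors and Sfrp inhibitors well above the ligands. All 17 ligands together summed to 9.95 RPKM in KO-labelled infarcted and 10.2 RPKM in KO-labelled non-infarcted tissue, against 9.41 RPKM in wild-type infarcted and 10.8 RPKM in wild-type non-infarcted tissue. The 10 Frizzled receptors summed to 53.5 RPKM in KO-labelled infarcted and 43.1 RPKM in KO-labelled non-infarcted tissue, against 48.6 RPKM in wild-type infarcted and 44.8 RPKM in wild-type non-infarcted tissue. The 9 inhibitors spanned a wider range, at 67.7 RPKM in KO-labelled infarcted and 50.2 RPKM in KO-labelled non-infarcted tissue, against 39.3 RPKM in wild-type infarcted and 34.5 RPKM in wild-type non-infarcted tissue. Thus the summed ligands varied little between libraries, and the summed inhibitors were highest in KO-labelled infarcted tissue.

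**Figure D1:**
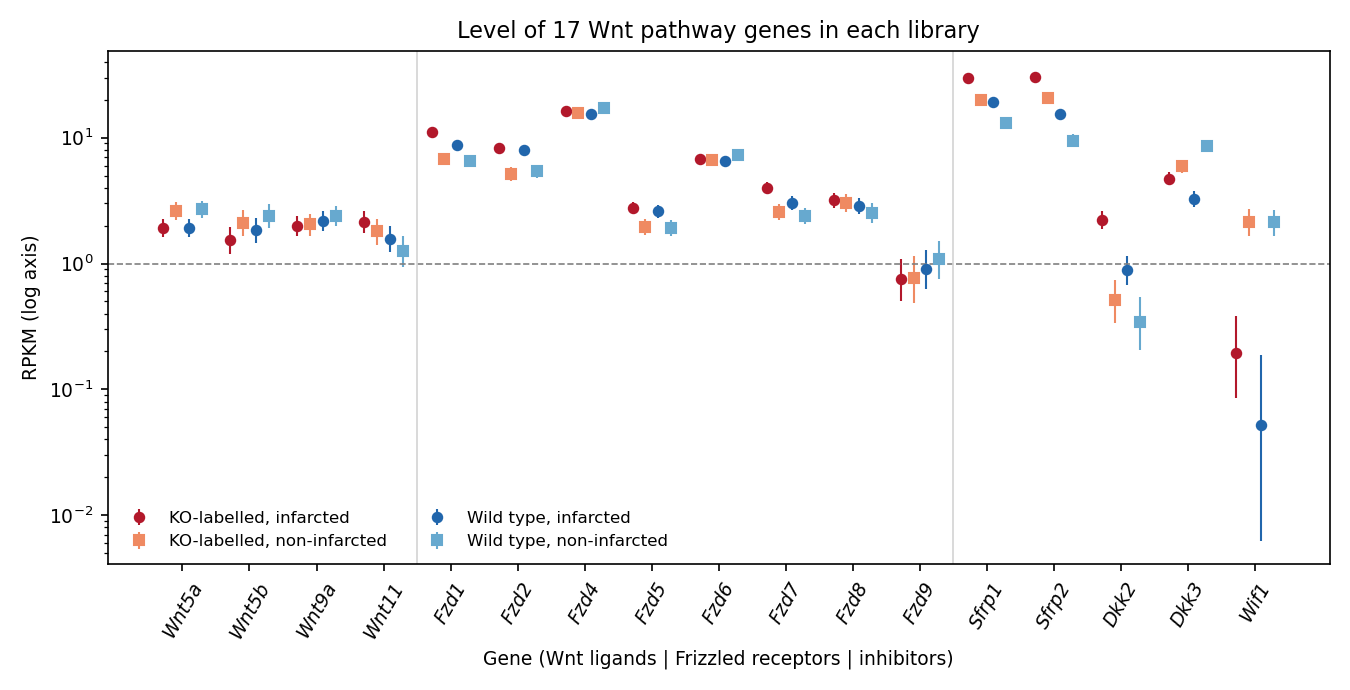
RPKM on a log axis of the 17 genes that reached 1 RPKM, with 1 point per library and bars for the exact 95% Poisson interval of its reads; the dashed line marks 1 RPKM. Sfrp1, Sfrp2 and Fzd4 stand highest, and Wif1 lowest, at 0.196 RPKM in KO-labelled infarcted and 0.0517 RPKM in wild-type infarcted tissue.

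Infarcted was first set against non-infarcted ventricle. Wif1 was nearly absent from infarcted tissue and Dkk3 and Wnt5a were lower, while Dkk2, Sfrp1, Sfrp2, Fzd1, Fzd2, Fzd5 and Fzd7 were higher, with counting intervals that exclude 1 in both pairs. With a 2-fold limit on log2(RPKM + 1), 1 family gene was higher (Dkk2) and 1 lower (Wif1) of 16 compared in the KO-labelled pair, where 8.2% of all 12563 genes compared were higher and 6.07% lower. In the wild-type pair 0 were higher and 2 lower (Dkk3 and Wif1) of 16, where 6.21% of all 12515 genes were higher and 3.6% lower. The family's median log2 ratio was 0.11 in the KO-labelled and 0.02 in the wild-type pair, beside 0.24 and 0.21 over all genes compared.

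In the fit over all 4 libraries (edgeR's quasi-likelihood test with Benjamini-Hochberg adjustment over 12716 genes), infarcted tissue had 5 of 17 family genes higher and 6 lower, where 29.2% of all genes were higher and 29.4% lower. Higher were Dkk2, Sfrp1, Sfrp2, Fzd1 and Fzd2, and lower were Wif1, Dkk3, Wnt5a, Wnt5b, Fzd4 and Fzd6. The adjusted p was 3.5e-07 for Wif1, 1.2e-04 for Dkk2, 1.3e-04 for Dkk3 and 7.8e-04 for Wnt5a. For Dkk2 it rests on the value that let the gene into the fit, since only KO-labelled infarcted tissue was above 1 RPKM. Wif1 likewise entered the fit and the 2-fold counts only through non-infarcted tissue, at 2.12 RPKM in the KO-labelled and 2.13 RPKM in the wild-type library. Its p-value and its lower counts rest on the values that let it in. With library totals in place of TMM factors, 47.7% of all genes were higher and 20.2% lower, Fzd4, Fzd6 and Wnt5b no longer passed, and Fzd5 and Fzd7 did as higher. Without the genotype label in the fit, Sfrp1, Sfrp2 and Fzd1 did not pass. The fit takes the KO-labelled and the wild-type pair as repeats of each other. Its p-values set the tissue difference against a spread drawn from the disagreement of the pairs and shared over all genes. For Dkk3 the fit averages unlike responses, 1.25-fold lower in the KO-labelled and 2.67-fold lower in the wild-type pair. Variation between animals of the same label was not measured.

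Wif1, which binds Wnts outside the cell, had 8 reads in KO-labelled infarcted and 68 in KO-labelled non-infarcted tissue, against 2 reads in wild-type infarcted and 71 in wild-type non-infarcted tissue. These are levels of 0.196 RPKM in KO-labelled infarcted and 2.12 RPKM in KO-labelled non-infarcted tissue, against 0.0517 RPKM in wild-type infarcted and 2.13 RPKM in wild-type non-infarcted tissue. Both infarcted libraries were far below both non-infarcted ones, and the non-infarcted libraries were alike. Wif1 was 10.8-fold lower (5.19 to 26.1) in infarcted tissue of the KO-labelled pair and 41.1-fold lower (11.0 to 346) in that of the wild-type pair. Reads covered 13.5% of its gene model in KO-labelled infarcted and 69.7% in KO-labelled non-infarcted tissue, against 4.37% in wild-type infarcted and 63.3% in wild-type non-infarcted tissue. Summed cardiomyocyte markers were lower in infarcted tissue as well, with ratios of 0.30 in the KO-labelled and 0.45 in the wild-type pair. Of 5 atrial markers 4 were listed, and 3 of them (Myl7, Myl4 and Sln) were at least 2-fold lower in infarcted tissue of both pairs, with Sln at 0 reads there. The fourth, Nppa, which ventricle also makes under strain, was higher and set the summed level of 1808 RPKM in KO-labelled infarcted and 1256 RPKM in KO-labelled non-infarcted tissue, against 2501 RPKM in wild-type infarcted and 1835 RPKM in wild-type non-infarcted tissue. The same 3 atrial markers were at least 2-fold lower in KO-labelled than in wild-type non-infarcted tissue, where Wif1 was at a ratio of 0.998 (0.705 to 1.41). The part of these cell types in the Wif1 ratio was not tested.

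Sfrp5, an Sfrp inhibitor that stayed below 1 RPKM, was likewise lower in infarcted tissue. It had 1 read in KO-labelled infarcted and 18 in KO-labelled non-infarcted tissue, against 0 in wild-type infarcted and 19 in wild-type non-infarcted tissue. It was 22.9-fold lower (3.62 to 955) in infarcted tissue of the KO-labelled pair, and at least 7.34-fold lower in that of the wild-type pair against a floor of 3 reads per library, where the exact interval allows 5.41-fold. The 3 adipocyte markers summed to 1.48 RPKM in KO-labelled infarcted and 3.58 RPKM in KO-labelled non-infarcted tissue, against 0.157 RPKM in wild-type infarcted and 4.24 RPKM in wild-type non-infarcted tissue. Only 1 of the 3 adipocyte markers reached 1 RPKM in any library, so these sums do not show 3 markers moving together. The part of such cells in the Sfrp5 and Wif1 values was not tested.

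Dkk3, a divergent member of the Dickkopf family, was at 4.73 RPKM in KO-labelled infarcted and 5.92 RPKM in KO-labelled non-infarcted tissue, against 3.24 RPKM in wild-type infarcted and 8.66 RPKM in wild-type non-infarcted tissue. The wild-type libraries held both the lowest and the highest level, and the KO-labelled ones lay between them. Dkk3 was 1.25-fold lower (1.06 to 1.48) in infarcted tissue of the KO-labelled pair and 2.67-fold lower (2.24 to 3.18) in that of the wild-type pair. The ratio of these infarct ratios, KO-labelled over wild type, was 2.13 (1.67 to 2.72). In non-infarcted tissue Dkk3 was 1.46-fold lower (1.26 to 1.70) in the KO-labelled library, where Myl4 was also lower, at 16.01 RPKM against 63.1 RPKM in wild type. In infarcted tissue Myl4 was at 2.30 RPKM in the KO-labelled and 2.23 RPKM in the wild-type library, and Dkk3 was 1.46-fold higher (1.21 to 1.76) in the KO-labelled one. Whether the atrial share of the samples contributed to the Dkk3 values was not tested.

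Dkk2, an Lrp5 and Lrp6 ligand, was at 2.21 RPKM in KO-labelled infarcted and 0.510 RPKM in KO-labelled non-infarcted tissue, against 0.891 RPKM in wild-type infarcted and 0.344 RPKM in wild-type non-infarcted tissue. KO-labelled infarcted tissue held 149 reads against 19 to 57 in each of the others. Dkk2 entered both the 2-fold counts and the fit through that library alone, the only one above 1 RPKM. Dkk2 was 4.33-fold higher (2.86 to 6.79) in infarcted tissue of the KO-labelled pair and 2.59-fold higher (1.52 to 4.61) in that of the wild-type pair. The ratio of both was 1.67 (0.81 to 3.40), an interval that includes 1. On the log2(RPKM + 1) scale the KO-labelled ratio was 1.09, and it dropped below the 2-fold limit, to 0.96, under TMM scaling. Its relative Dkk1 had 2 to 10 reads per library, and Dkkl1 had 1 read in all.

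Sfrp1 and Sfrp2, which bind Wnts through a Frizzled-like domain, were the most abundant inhibitors. Sfrp1 was at 29.9 RPKM in KO-labelled infarcted and 20.01 RPKM in KO-labelled non-infarcted tissue, against 19.1 RPKM in wild-type infarcted and 13.1 RPKM in wild-type non-infarcted tissue. Sfrp2 was at 30.2 RPKM in KO-labelled infarcted and 20.7 RPKM in KO-labelled non-infarcted tissue, against 15.5 RPKM in wild-type infarcted and 9.49 RPKM in wild-type non-infarcted tissue. Both genes were highest in KO-labelled infarcted and lowest in wild-type non-infarcted tissue. Sfrp1 was 1.49-fold higher (1.39 to 1.6) in infarcted tissue of the KO-labelled pair and 1.46-fold higher (1.34 to 1.6) in that of the wild-type pair. Sfrp2 was 1.46-fold higher (1.32 to 1.61) in the KO-labelled and 1.64-fold higher (1.42 to 1.90) in the wild-type pair. The 7 fibroblast markers summed to 2383 RPKM in KO-labelled infarcted and 1577 RPKM in KO-labelled non-infarcted tissue, against 1576 RPKM in wild-type infarcted and 1257 RPKM in wild-type non-infarcted tissue, with the collagen gene Col1a1 and Postn contributing most. Of these markers 6 of 7 were higher in infarcted tissue of the KO-labelled and 4 of 7 in that of the wild-type pair, and their part in the Sfrp ratios was not tested. Sfrp4 had 11 reads in KO-labelled infarcted and 3 in KO-labelled non-infarcted tissue, against 5 in wild-type infarcted and 1 in wild-type non-infarcted tissue, too few to compare.

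**Figure D2:**
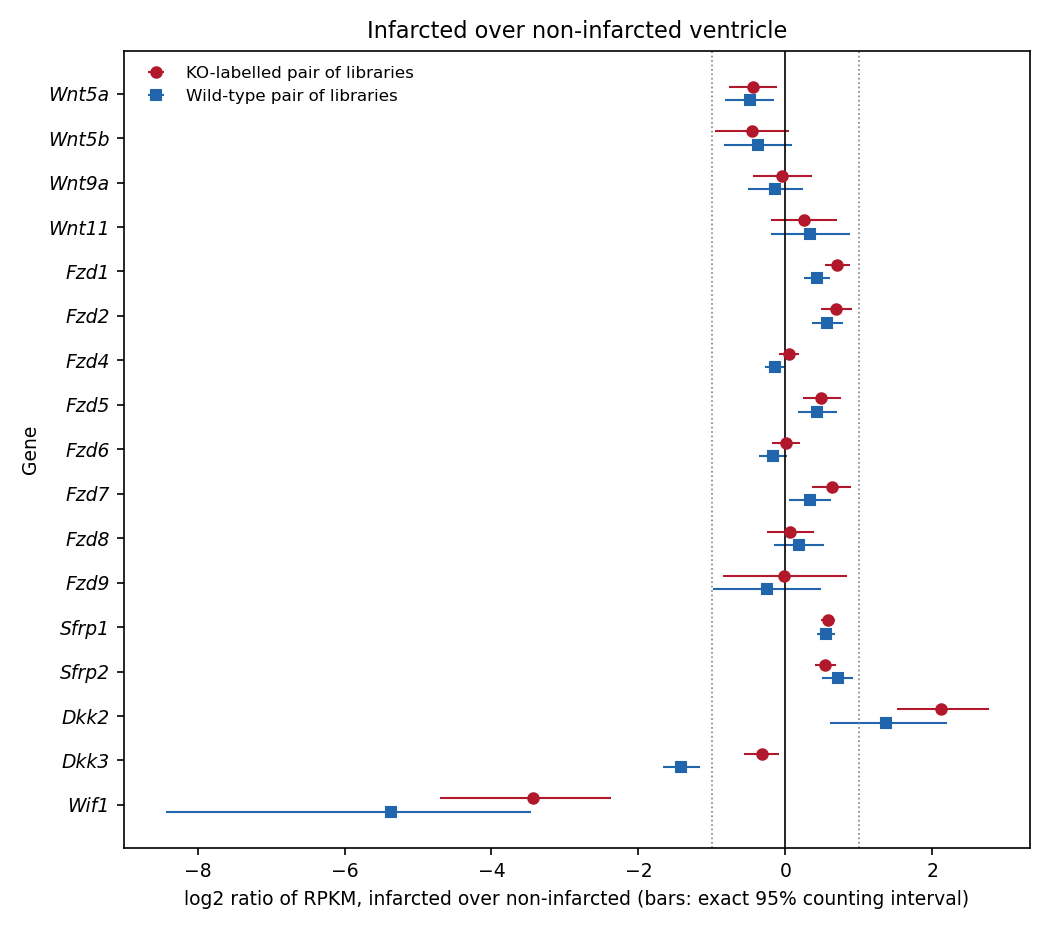
log2 ratio of RPKM, infarcted over non-infarcted, for the 17 genes in the KO-labelled and the wild-type pair of libraries, with exact 95% counting intervals; dotted lines mark 2-fold. Wif1 lies far to the left in both pairs, at 10.8-fold and 41.1-fold lower, Dkk2 to the right at 4.33-fold and 2.59-fold higher, and the 8 receptors within 0.838 to 1.63 times.

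Among the Frizzled receptors, Fzd4, a receptor for Wnts and for Norrin that endothelium uses, was the most abundant, at 16.2 RPKM in KO-labelled infarcted and 15.7 RPKM in KO-labelled non-infarcted tissue, against 15.5 RPKM in wild-type infarcted and 17.2 RPKM in wild-type non-infarcted tissue. Its infarct ratio was 1.03 (0.943 to 1.13) in the KO-labelled and 0.902 (0.824 to 0.987) in the wild-type pair, while summed endothelial markers were at 1.6 and 1.61. Of the 6 endothelial markers 5 were higher and 1 lower in infarcted tissue of both pairs, and their part in the Fzd4 level was not tested.

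The closely related receptors Fzd1, Fzd2 and Fzd7 were higher in infarcted tissue of both pairs in deposited RPKM. Fzd1 was at 11.1 RPKM in KO-labelled infarcted and 6.83 RPKM in KO-labelled non-infarcted tissue, against 8.74 RPKM in wild-type infarcted and 6.51 RPKM in wild-type non-infarcted tissue. Its infarct ratio was 1.63 (1.45 to 1.83) in the KO-labelled and 1.34 (1.19 to 1.52) in the wild-type pair, so both infarcted libraries were the higher ones. Fzd2 was at 8.33 RPKM in KO-labelled infarcted and 5.15 RPKM in KO-labelled non-infarcted tissue, against 8.00 RPKM in wild-type infarcted and 5.40 RPKM in wild-type non-infarcted tissue. The ratio was 1.62 (1.39 to 1.88) in the KO-labelled and 1.48 (1.28 to 1.72) in the wild-type pair. Fzd7 was at 4.01 RPKM in KO-labelled infarcted and 2.59 RPKM in KO-labelled non-infarcted tissue, against 3.03 RPKM in wild-type infarcted and 2.40 RPKM in wild-type non-infarcted tissue. Its ratio was 1.55 (1.29 to 1.86) in the KO-labelled and 1.26 (1.04 to 1.54) in the wild-type pair. For these 3 receptors each infarcted library lay above both non-infarcted ones as deposited. In the fit with TMM factors Fzd1 and Fzd2 passed, and Fzd7 did not, at an adjusted p of 0.16 by edgeR's quasi-likelihood test.

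Fzd5, which has been linked to Wnt5a signalling, was also higher as deposited, with infarct ratios of 1.40 (1.17 to 1.68) in the KO-labelled and 1.35 (1.13 to 1.62) in the wild-type pair. Like Fzd7 it did not pass in the fit with TMM factors, at an adjusted p of 0.17 by edgeR's quasi-likelihood test. Fzd6, a receptor known to restrain β-catenin signalling, was at 6.52 to 7.34 RPKM in the 4 libraries. Fzd8 was at 2.53 to 3.17 RPKM and Fzd9 at 0.755 to 1.08 RPKM. As deposited, the intervals of the infarct ratios of Fzd6, Fzd8 and Fzd9 included 1 in both pairs. For Fzd6 this depends on the scaling: it was lower in the fit with TMM factors, and did not pass with library totals. In all, 7 of 8 receptors in the KO-labelled and 5 of 8 in the wild-type pair lay above 1 as deposited, where 66.3% of all genes in the KO-labelled and 67.2% in the wild-type pair did, but 4 of 8 in each under TMM and median-of-ratios scaling, where Fzd4, Fzd6 and Fzd8 of the KO-labelled pair and Fzd8 of the wild-type pair turned. Both scalings lower the median log2 ratio of all genes by 0.19 to 0.22. Of the receptors below 1 RPKM, Fzd3 had 54 to 99 reads per library and Fzd10 0 or 1.

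Among ligands, Wnt5a, which signals largely without β-catenin, was the only one whose counting interval excluded 1 in both pairs. It was at 1.93 RPKM in KO-labelled infarcted and 2.62 RPKM in KO-labelled non-infarcted tissue, against 1.93 RPKM in wild-type infarcted and 2.70 RPKM in wild-type non-infarcted tissue. It was 1.36-fold lower (1.08 to 1.71) in infarcted tissue of the KO-labelled pair and 1.40-fold lower (1.12 to 1.77) in that of the wild-type pair. This covers the 4 ligands that reached 1 RPKM.

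The related ligand Wnt5b was at 1.54 RPKM in KO-labelled infarcted and 2.11 RPKM in KO-labelled non-infarcted tissue, against 1.85 RPKM in wild-type infarcted and 2.39 RPKM in wild-type non-infarcted tissue. Its infarct ratio was 0.731 (0.516 to 1.03) in the KO-labelled and 0.772 (0.559 to 1.06) in the wild-type pair, below 1 with intervals that include it. Wnt9a, known from joint development, was at 1.99 to 2.41 RPKM in the 4 libraries. Wnt11, a β-catenin-independent ligand of heart development, was at 2.15 RPKM in KO-labelled infarcted and 1.81 RPKM in KO-labelled non-infarcted tissue, against 1.58 RPKM in wild-type infarcted and 1.25 RPKM in wild-type non-infarcted tissue. The infarct intervals of Wnt9a and Wnt11 included 1 in both pairs.

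The 13 ligands below 1 RPKM had between 0 and 51 reads per library, and 10 of them had at most 10 reads in every library. Wnt7a was the only one of the 13 with intervals above 1 in both pairs. It had 24 reads in KO-labelled infarcted and 7 in KO-labelled non-infarcted tissue, against 24 in wild-type infarcted and 5 in wild-type non-infarcted tissue. This gave ratios of 2.69 (1.13 to 7.40) in the KO-labelled and 4.14 (1.55 to 13.9) in the wild-type pair, from few reads. Wnt2b, the most abundant of the 13, had 51 reads in KO-labelled infarcted and 27 in KO-labelled non-infarcted tissue, against 39 in wild-type infarcted and 38 in wild-type non-infarcted tissue. Wnt9b was 2.17-fold lower (1.15 to 4.27) in infarcted tissue of the wild-type pair, with 16 reads in infarcted against 30 in non-infarcted tissue, and had 17 reads in each library of the KO-labelled pair. Wnt1 and Wnt3a, classical activators of β-catenin, had at most 10 and 2 reads per library.

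KO-labelled libraries were next set against wild type in each tissue. Sfrp1 and Sfrp2 were higher in the KO-labelled library in both tissues, and Dkk2, Dkk3, Fzd1, Fzd7 and Wnt11 in infarcted tissue, by counting intervals that exclude 1. For Wnt11 the lower limit lay close to 1, at 1.01 with deposited library totals. Dkk3 was lower in non-infarcted tissue. At 2-fold, 0 of 15 family genes compared were higher and 0 lower in infarcted tissue, where 0.249% of all 12464 genes were higher and 0.241% lower. In non-infarcted tissue 1 of 16 was higher (Sfrp2) and 0 lower, where 0.254% of all 12226 genes were higher and 0.188% lower. With a pseudocount of 0.1 RPKM the count of higher genes in infarcted tissue was 1, Dkk2, where 0.562% of all genes were higher. In the fit over all 4 libraries 3 of 17 family genes were higher in KO-labelled tissue and 0 lower, where 1.64% of all 12716 genes were higher and 0.857% lower. These were Sfrp2, with an adjusted p of 6.5e-05 by edgeR's quasi-likelihood test, Sfrp1 with 0.0028 and Dkk2 with 0.031. Dkk2 entered the fit only through KO-labelled infarcted tissue, where it was highest, so its p-value rests on the value that let it in. Without tissue in the fit 0 genes passed, of all genes tested, and 32 had an unadjusted p under 0.05, 1 of them in the family. For the genotype label the fit takes the infarcted and non-infarcted libraries as repeats of each other. They are not replicate animals, so variation between mice of the same label was not measured.

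Sfrp2 was 1.94-fold higher (1.75 to 2.16) in the KO-labelled library in infarcted and 2.18-fold higher (1.89 to 2.52) in non-infarcted tissue. From the levels given above, KO-labelled non-infarcted tissue even exceeded wild-type infarcted tissue in Sfrp2, at 20.7 RPKM in KO-labelled non-infarcted against 15.5 RPKM in wild-type infarcted tissue. Sfrp1 was 1.56-fold higher (1.46 to 1.67) in infarcted and 1.53-fold higher (1.40 to 1.67) in non-infarcted tissue. Sfrp1 lies on chromosome 8 like Neil3, with 139 protein-coding genes between them in the RefSeq gene order, and Sfrp2 lies on chromosome 3. Summed fibroblast markers were 1.51-fold higher in infarcted and 1.25-fold higher in non-infarcted tissue, with 7 of 7 and 5 of 7 markers above 0 on the log2(RPKM + 1) scale and medians of 0.35 and 0.09. Summed macrophage markers were 1.40-fold higher in infarcted and 1.67-fold higher in non-infarcted tissue, with 6 of 6 markers above 0 in both. Here too the part of these cell types was not tested.

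**Figure D3:**
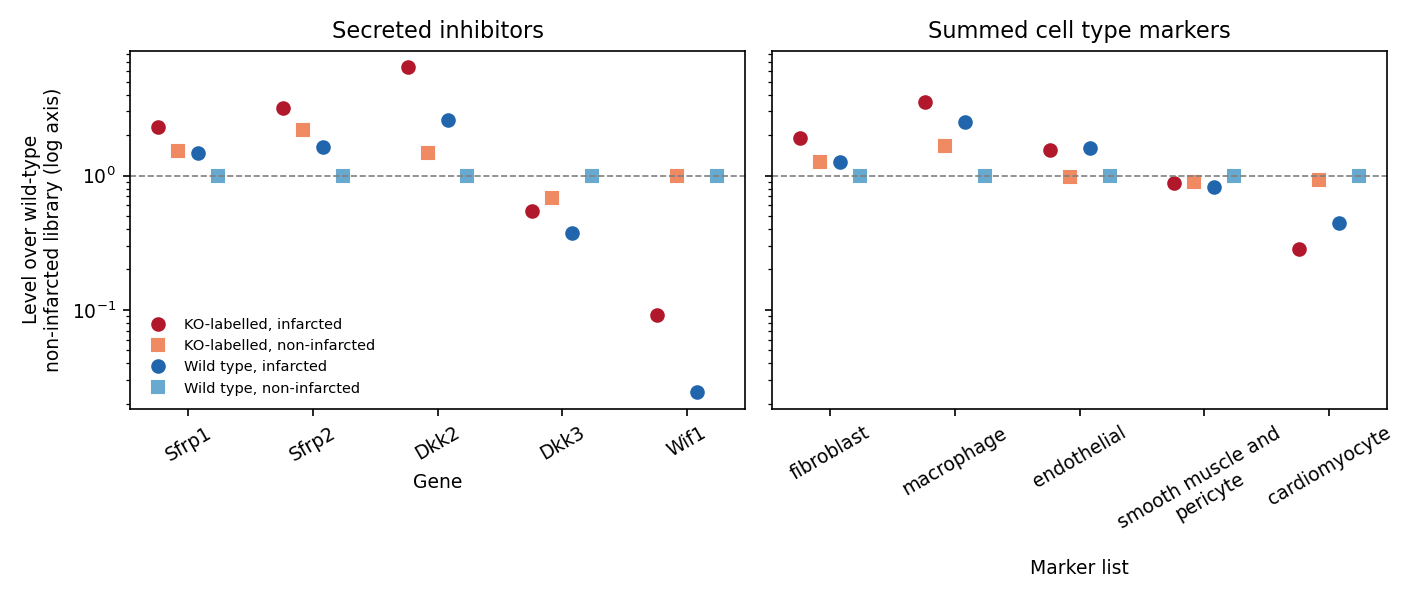
Level of 5 secreted inhibitors (left) and summed RPKM of 5 marker lists (right) in each library, divided by the wild-type non-infarcted library, on a log axis. Sfrp2 is above its wild-type counterpart in both tissues, by 1.94-fold and 2.18-fold, and the fibroblast markers by 1.51-fold and 1.25-fold.

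Dkk2 was 2.48-fold higher (1.82 to 3.43) in the KO-labelled library in infarcted tissue, and at 1.48 times (0.794 to 2.82) in non-infarcted tissue, where the interval includes 1. Frzb, a further soluble Frizzled-related inhibitor outside the symbol rule, was 1.33-fold higher (1.19 to 1.49) in infarcted tissue and at 0.923 times (0.795 to 1.07) in non-infarcted tissue. Wif1 could not be ranked in infarcted tissue, with a ratio of 3.79 and an interval of 0.757 to 36.7.

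Among the receptors, Fzd1 was 1.27-fold higher (1.15 to 1.41) and Fzd7 1.32-fold higher (1.12 to 1.56) in the KO-labelled library in infarcted tissue. In non-infarcted tissue the KO-labelled over wild-type ratio was 1.05 (0.916 to 1.20) for Fzd1 and 1.08 (0.870 to 1.34) for Fzd7. The other 6 receptors had intervals that include 1 in both tissues, over a range of ratios from 0.705 to 1.20. Of the ligands, Wnt11 was 1.36-fold higher (1.01 to 1.85) in infarcted tissue and at 1.44 times (0.996 to 2.10) in non-infarcted tissue. Wnt5a was at a ratio of 1.0 (0.791 to 1.27) in infarcted and 0.970 (0.777 to 1.21) in non-infarcted tissue.

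**Figure D4:**
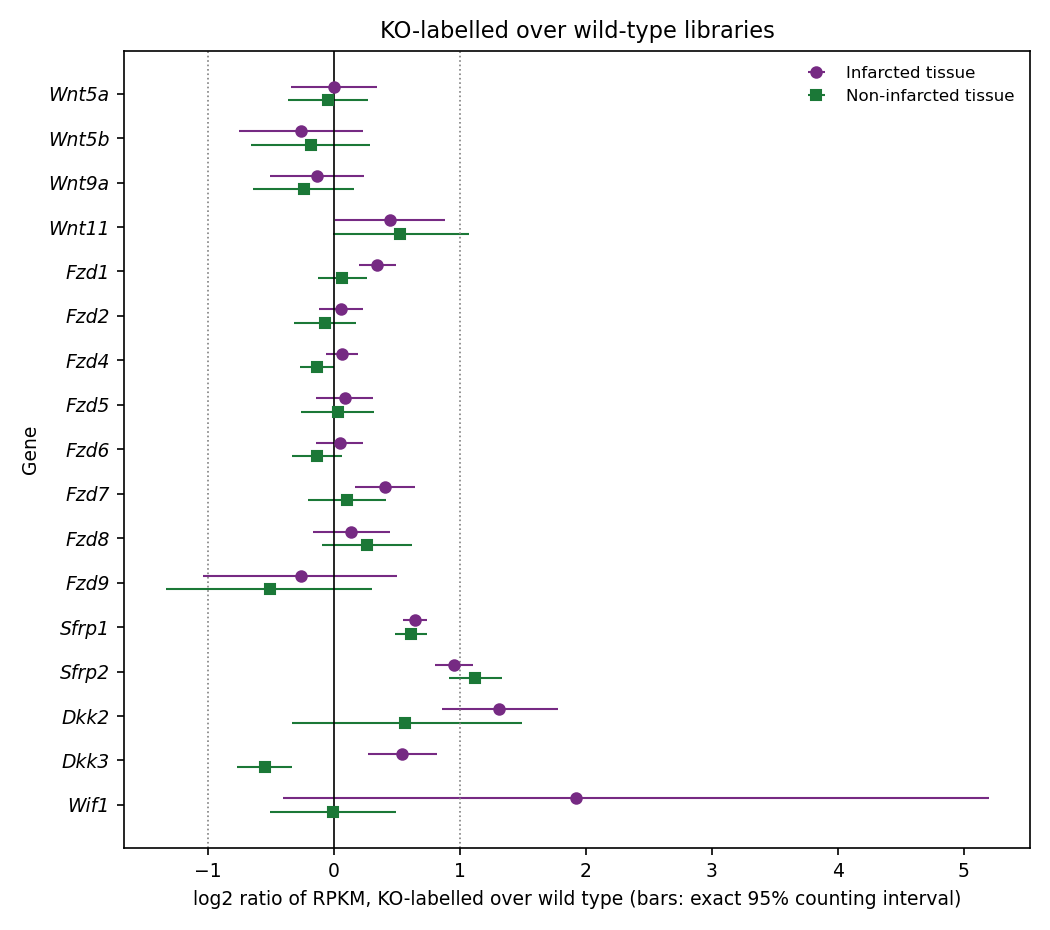
log2 ratio of RPKM, KO-labelled over wild type, for the 17 genes in infarcted and non-infarcted tissue, with exact 95% counting intervals; dotted lines mark 2-fold. Sfrp1 and Sfrp2 lie to the right in both tissues, and Dkk3 is on opposite sides, 1.46-fold higher in infarcted and 1.46-fold lower in non-infarcted tissue.

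The difference of both infarct log2 ratios, KO-labelled minus wild type, reached 1 or more in either direction for 0 of the 17 genes, where 0.299% of 12716 genes were higher and 0.228% lower. Dkk3 came closest, at 0.91, and reached 1.07 with a pseudocount of 0.1 RPKM. Sfrp1 and Sfrp2 had nearly the same infarct response in both pairs, with a ratio of infarct ratios of 1.02 (0.914 to 1.14) for Sfrp1 and 0.890 (0.744 to 1.06) for Sfrp2.

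The rest of the pathway was followed in 7 lists with 76 distinct genes, of which 75 were listed. In the infarct comparison 6 genes were higher and 1 lower of 59 compared in the KO-labelled pair, and 2 were higher and 1 lower of 58 compared in the wild-type pair. The shares over all genes were 8.2% higher and 6.07% lower in the KO-labelled and 6.21% higher and 3.6% lower in the wild-type pair. Infarct counts of the single lists below stand beside these same shares. Against wild type, KO-labelled libraries had 0 genes at least 2-fold apart in either tissue, of 55 compared in infarcted and 58 in non-infarcted tissue, where 0.188% to 0.254% of all genes were in each direction. The pathway median of the infarct log2 ratio was 0.12 in the KO-labelled and 0.15 in the wild-type pair, below the 0.24 and 0.21 of all genes.

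For Wnt secretion, Wls, the carrier of Wnts to the cell surface, had infarct ratios of 1.37 (1.28 to 1.47) in the KO-labelled and 1.30 (1.21 to 1.39) in the wild-type pair. Porcn, which attaches the lipid, had ratios of 0.727 (0.524 to 1.01) in the KO-labelled and 1.16 (0.837 to 1.63) in the wild-type pair. Both genes of this list were less than 2-fold apart. Of 3 other secreted modulators compared, none reached 2-fold: Frzb was at 1.77 (1.55 to 2.01) in the KO-labelled and 1.22 (1.07 to 1.40) in the wild-type pair, Igfbp4 at 1.30 (1.22 to 1.38) in the KO-labelled and 1.18 (1.11 to 1.26) in the wild-type pair, and Apcdd1 at 1.15 (0.924 to 1.45) in the KO-labelled and 0.822 (0.635 to 1.06) in the wild-type pair.

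Of 10 co-receptors and turnover genes compared, Ptk7, a Wnt co-receptor of planar polarity, was at 12.4 RPKM in KO-labelled infarcted and 5.0 RPKM in KO-labelled non-infarcted tissue, against 9.60 RPKM in wild-type infarcted and 4.72 RPKM in wild-type non-infarcted tissue. It was counted as 2-fold higher in the KO-labelled pair, at 2.48-fold (2.18 to 2.84), and not in the wild-type pair, at 2.03-fold (1.77 to 2.34), which the added 1 RPKM brings below the limit. Lgr6, a receptor for R-spondins, was lower in both pairs, 2.63-fold (2.21 to 3.14) in the KO-labelled and 2.38-fold (2.04 to 2.79) in the wild-type one. Ror2, a Wnt5a co-receptor, had ratios of 1.87 (1.45 to 2.42) in the KO-labelled and 1.65 (1.25 to 2.19) in the wild-type pair. Kremen1, a Dkk receptor, was lower, 1.69-fold (1.6 to 1.78) in the KO-labelled and 1.47-fold (1.39 to 1.54) in the wild-type pair.

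None of 15 cytosolic β-catenin pathway genes reached 2-fold in either pair. Of all genes, 8.2% were higher and 6.07% lower in the KO-labelled pair, and 6.21% higher and 3.6% lower in the wild-type pair. Axin1, a scaffold of the β-catenin destruction complex, had infarct ratios of 1.38 (1.23 to 1.55) in the KO-labelled and 1.37 (1.22 to 1.55) in the wild-type pair. The kinases Csnk1d and Csnk1e had ratios of 1.28 (1.20 to 1.37) and 1.34 (1.23 to 1.47) in the KO-labelled pair, and of 1.43 (1.34 to 1.54) and 1.42 (1.30 to 1.54) in the wild-type pair. Apc2, a relative of the scaffold Apc, was lower, 1.81-fold (1.41 to 2.31) in the KO-labelled and 1.5-fold (1.21 to 1.86) in the wild-type pair. Of 12 nuclear genes, 1 was counted as higher in the KO-labelled pair and 0 in the wild-type pair, where 8.2% and 6.21% of all genes were. The gene counted was Tle3, a co-repressor of TCF factors, with ratios of 2.21 (2.02 to 2.42) in the KO-labelled and 2.06 (1.88 to 2.26) in the wild-type pair. Tcf7, a TCF factor also made by T cells, had ratios of 2.03 (1.25 to 3.40) in the KO-labelled and 4.16 (2.15 to 8.83) in the wild-type pair at levels of 0.33 to 1.52 RPKM. Pygo1 and Pygo2, β-catenin co-activators, lay on opposite sides. Pygo1 was lower in infarcted tissue, 1.99-fold (1.52 to 2.62) in the KO-labelled and 1.62-fold (1.26 to 2.09) in the wild-type pair, and Pygo2 was higher, with ratios of 1.59 (1.40 to 1.81) in the KO-labelled and 1.6 (1.41 to 1.82) in the wild-type pair.

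No planar polarity gene of 10 compared reached 2-fold on the log2(RPKM + 1) scale, although the cadherins Celsr1 and Celsr2 were lower in plain RPKM. On that scale 8.2% of all genes were higher and 6.07% lower in the KO-labelled pair, and 6.21% higher and 3.6% lower in the wild-type pair. Celsr1 was 3.10-fold lower (2.40 to 4.04) in infarcted tissue of the KO-labelled and 2.15-fold lower (1.77 to 2.63) in that of the wild-type pair, at levels of 0.42 to 1.76 RPKM. Celsr2 was 2.97-fold lower (2.23 to 3.98) in the KO-labelled and 2.30-fold lower (1.76 to 3.04) in the wild-type pair. Prickle1, a cytosolic partner in this system, was lower, 1.97-fold (1.65 to 2.36) in the KO-labelled and 1.91-fold (1.62 to 2.26) in the wild-type pair. Vangl2, a membrane protein of the system, was at 1.92 (1.18 to 3.19) in the KO-labelled and 1.40 (0.932 to 2.13) in the wild-type pair.

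Among 17 genes reported as Wnt targets, 10 were compared in the KO-labelled and 9 in the wild-type pair. At least 2-fold higher were 4 in the KO-labelled and 2 in the wild-type pair, and 0 were lower in either. Of all genes, 8.2% were higher and 6.07% lower in the KO-labelled pair, and 6.21% higher and 3.6% lower in the wild-type pair. Those counted in both pairs were Myc, a growth regulator, at 3.19-fold (2.81 to 3.62) in the KO-labelled and 3.31-fold (2.95 to 3.72) in the wild-type pair, and Cd44, an adhesion receptor of leukocytes and fibroblasts, at 3.26-fold (3.06 to 3.48) in the KO-labelled and 2.74-fold (2.58 to 2.92) in the wild-type pair. Both genes respond to many signals besides Wnt. Wisp1 and Wisp2, secreted matricellular proteins, were counted as higher in the KO-labelled pair, and not in the wild-type pair. Wisp1 was at 2.58-fold (2.36 to 2.81) there and at 1.84-fold (1.68 to 2.02) in the wild-type pair. Wisp2 was at 2.20-fold (1.97 to 2.46) in the KO-labelled and 1.63-fold (1.43 to 1.85) in the wild-type pair. Whether these responses differ between the genotypes was not tested.

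Axin2, the feedback target read most often as a sign of β-catenin activity, did not follow them. It was at 0.56 RPKM in KO-labelled infarcted and 1.24 RPKM in KO-labelled non-infarcted tissue, against 0.58 RPKM in wild-type infarcted and 0.91 RPKM in wild-type non-infarcted tissue. It was lower in infarcted tissue, 2.20-fold (1.5 to 3.27) in the KO-labelled and 1.56-fold (1.04 to 2.38) in the wild-type pair, though within 2-fold once 1 RPKM was added. Lef1, a TCF factor and target, was below 1 RPKM in every library, at 0.34 RPKM in KO-labelled infarcted and 0.09 RPKM in KO-labelled non-infarcted tissue, against 0.19 RPKM in wild-type infarcted and 0.14 RPKM in wild-type non-infarcted tissue. By the 1 RPKM limit Lef1 was compared in neither pair and Axin2 in the KO-labelled pair only. Of the targets compared, 7 were above 0 and 3 below in the KO-labelled pair, and 7 above and 2 below in the wild-type pair. Their median log2 ratio was 0.34 in the KO-labelled and 0.66 in the wild-type pair.

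**Figure D5:**
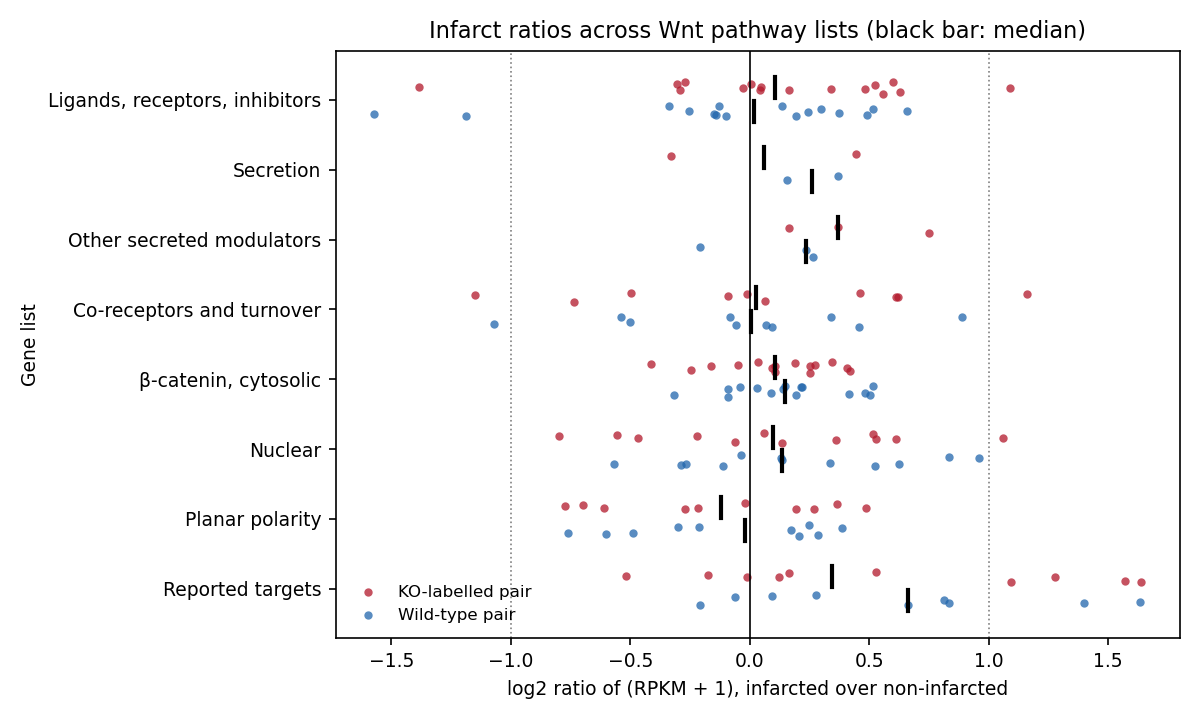
log2 ratio of (RPKM + 1), infarcted over non-infarcted, for each gene compared in the family and in 7 pathway lists, in the KO-labelled and the wild-type pair; black bars are medians and dotted lines mark 2-fold. Most genes lie within 2-fold, and reported targets have the highest median in the wild-type pair, at 0.66.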

How the data were processed

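The authors deposited, for each library, uniquely assigned read counts per gene, the listed gene length, coverage in percent and RPKM, per the file headers. The deposited RPKM values equal counts divided by length and by the library total, and genes with no read are not listed and were taken as 0. Build mm9 is listed in the submitters' processing notes; for aligner, counter, annotation and strand handling the sources used here name nothing. In GENCODE M21, opposite-strand transcripts outside the tables used here share exon bases with Sfrp2, Fzd5, Fzd6, Wnt11 and Wnt7b.

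Ratios of deposited RPKM carry exact Clopper-Pearson 95% intervals of the read share, levels exact Poisson intervals, and ratios of infarct ratios exact conditional odds-ratio intervals (scipy 1.17.1). At these depths 1 read on a 2 kb model is 0.0275 to 0.0350 RPKM. PCR copies are not independent molecules, so intervals cover counting error only. A gene entered a comparison if either library reached 1 RPKM, and was counted when 2-fold apart on the log2(RPKM + 1) scale. The planned comparisons of 1 library with 1 library carry no test. A quasi-likelihood fit of counts on tissue plus genotype label over the 4 libraries (edgeR 4.0.16, TMM, adjusted p under 0.05) was added after the data were seen, for genes that reached 1 RPKM. Counting was tested on simulated Poisson counts, and the fit on simulated counts with the spread it had itself estimated. Neither simulation held a measured variation between animals, so neither covers it.

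Named genes were the 17 family genes that reached 1 RPKM, up to 4 genes per pathway list with the largest mean infarct log2 ratio in size, and Axin2 and Lef1; family genes below 1 RPKM were named after their values were seen. Family and lists were chosen with earlier results of these data known. Alternatives were TMM (edgeR 4.0.16) and median-of-ratios scaling, a pseudocount of 0.1 RPKM, no filter or 5 RPKM, and 1.5-fold.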

Additional observations from a re-analysis of the deposited data

Results flagged for a closer look

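Dkk3, Fzd1 and Fzd4 had different infarct ratios in the KO-labelled and the wild-type pair, by a counting interval of the ratio of infarct ratios that excludes 1. The ratio, KO-labelled over wild type, was 2.13 (1.67 to 2.72) for Dkk3, 1.21 (1.02 to 1.44) for Fzd1 and 1.14 (1.01 to 1.30) for Fzd4. These intervals hold for deposited library totals only, and the lower limits for Fzd1 and Fzd4 lay close to 1. Fzd4 and Fzd6 lay on opposite sides of 1 in the pairs, and for Fzd6 the ratio was 1.13 (0.935 to 1.37), an interval that includes 1. Each pair is 2 libraries, so none of these differences was tested against variation between animals. With TMM or median-of-ratios scaling, Fzd4 and Fzd6 lay below 1 in both pairs.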

How the results depend on the processing

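The number of family genes at least 2-fold higher in infarcted tissue of the KO-labelled pair was 1 as deposited, 0 under TMM scaling, 0 under median-of-ratios scaling, 0 with a filter at 5 RPKM and 3 at 1.5-fold (Dkk2, Fzd1 and Fzd2). In the same order, 8.2%, 4.37%, 4.12%, 9.28% and 25.0% of all genes compared were higher. At 5 RPKM, the lower counts were 0 in the KO-labelled pair and 1 (Dkk3) in the wild-type pair, since Wif1 and Dkk2 no longer enter. There 7.08% of all genes were lower in the KO-labelled and 4.1% in the wild-type pair. For higher genes in infarcted tissue of the wild-type pair the count was 1 (Sfrp2) at 1.5-fold, where 21.6% of all genes were higher. In KO-labelled against wild-type infarcted tissue the count was 1 (Dkk2) with a pseudocount of 0.1 RPKM, where 0.562% of all genes were higher. At 1.5-fold it was 3 (Dkk2, Sfrp1 and Sfrp2), where 1.51% of all genes were. Without a filter every count was as given in the report. Of 85 log2 ratios of single genes, 76 stayed within their counting interval under TMM scaling, 74 under median-of-ratios scaling and 83 with a pseudocount of 0.1 RPKM; 5, 6 and 0 changed sign, none of them counted at 2-fold. In the fit over 4 libraries added after seeing the data, genotype label served as the block for tissue. It gave 5 family genes higher and 6 lower in infarcted tissue, 2 higher and 6 lower without the block, and 7 higher and 3 lower with library totals. Of all genes, 29.2% were higher and 29.4% lower with the block, 24% and 25.7% without it, and 47.7% and 20.2% with library totals. KO-labelled against wild type, the fit gave 3 higher and 0 lower, where 1.64% of all genes were higher and 0.857% lower. Without tissue as the block it gave 0 higher and 0 lower, as it did over all genes. No sample pairing by replicate number entered, since each group has 1 library. Depth limits genes below 1 RPKM, where a few reads decide a ratio.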
